A study of Homo sapiens with 8 samples.

Results

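The teneurin genes TENM1, TENM2, TENM3 and TENM4 were examined in m6A peak lists of chromosome-associated RNA from the human embryonic kidney line HEK293T. The members were every peak that overlapped the RefSeq GRCh38 bounds of these 4 genes by at least 1 bp. They were 64 of 29084 peaks in the wild-type list and 22 of 23937 in the knockout list. The 8 libraries form 4 groups of 2 replicates, which are input and m6A immunoprecipitate (IP) of parental HEK293T cells (wild type) and input and IP of METTL3-/- HEK293T cells (knockout). METTL3 is the methyltransferase that places most N6-methyladenosine (m6A) on messenger RNA, and a peak list does not check its deletion. The groups share the cell line and the rRNA removal, and the sources used here do not say how many knockout clones there were. Each genotype is represented by 1 deposited list with no values per replicate, so no spread between replicates and no test of genotype could be computed. The family was chosen by its peaks, and the counts below are descriptions of these 2 lists.

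Teneurins are large transmembrane proteins that cells use to recognise each other. Their extracellular part ends in a folded toxin-like domain. As a whole, the extracellular part binds latrophilins, which are adhesion G protein-coupled receptors. They are best known from the developing nervous system, where they guide axons and the matching of synaptic partners. The genes are long and consist mostly of introns, and chromosome-associated RNA is rich in transcripts that are not yet spliced.

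Of the 4 paralogs, TENM1 held the most wild-type peaks and hardly any knockout peak, with 42 and 1. TENM3 held 18 and 15, TENM4 held 4 and 5, and TENM2 held 0 and 1. Wild-type peaks thus lay in 3 of the 4 genes and knockout peaks in all 4, where 74.9% of the 315 protein-coding genes over 500 kb had a wild-type peak and 75.6% had a knockout peak. TENM1 supplied 65.6% of the wild-type family peaks and 4.55% of the knockout ones. The paralogs therefore did not share a pattern between the lists.

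**Figure D1:**
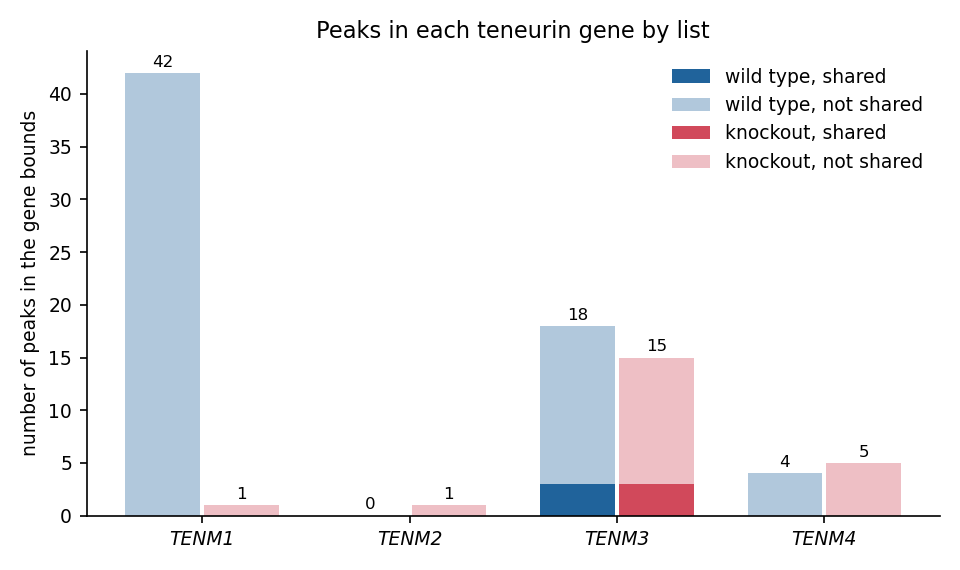
Number of peaks in the RefSeq bounds of each teneurin gene (bars, counts above them) in the wild-type and the knockout list, with no replicate error since each list is 1 call. Dark segments are peaks that overlap a peak of the other list on the same strand, present in TENM3 with 3 per list, and TENM1 has 42 wild-type peaks and 1 knockout peak.

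The sequence around a transcript start is shown for each gene, because the positions below are counted from it. Each window runs from 250 bases before to 50 bases after a RefSeq transcript start (GRCh38.p14), on the strand of the gene, and the outermost start in the RefSeq window table was taken. The windows are chrX:125204263-125204562 on the minus strand for TENM1, chr5:167072992-167073291 on the plus strand for TENM2, chr4:182143713-182144012 on the plus strand for TENM3 and chr11:79440981-79441280 on the minus strand for TENM4. Capitals mark the dinucleotide CG, which reads the same on both strands.
TENM1: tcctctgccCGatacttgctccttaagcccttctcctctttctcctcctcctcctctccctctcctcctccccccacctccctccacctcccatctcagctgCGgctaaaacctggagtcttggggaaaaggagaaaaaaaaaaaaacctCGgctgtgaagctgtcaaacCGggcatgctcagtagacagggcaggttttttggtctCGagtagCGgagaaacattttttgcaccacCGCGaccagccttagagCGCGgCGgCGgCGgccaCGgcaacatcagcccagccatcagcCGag
TENM2: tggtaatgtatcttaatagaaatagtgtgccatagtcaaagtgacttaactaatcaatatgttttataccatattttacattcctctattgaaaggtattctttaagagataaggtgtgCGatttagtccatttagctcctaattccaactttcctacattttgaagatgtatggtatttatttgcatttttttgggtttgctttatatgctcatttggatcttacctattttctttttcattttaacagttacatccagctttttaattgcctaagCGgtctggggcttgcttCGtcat
TENM3: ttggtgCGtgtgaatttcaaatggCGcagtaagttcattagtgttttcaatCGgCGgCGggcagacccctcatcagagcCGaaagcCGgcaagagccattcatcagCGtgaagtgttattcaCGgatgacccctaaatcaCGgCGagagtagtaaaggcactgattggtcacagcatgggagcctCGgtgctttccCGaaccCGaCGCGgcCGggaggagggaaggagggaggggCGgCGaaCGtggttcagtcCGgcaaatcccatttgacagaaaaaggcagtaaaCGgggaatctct
TENM4: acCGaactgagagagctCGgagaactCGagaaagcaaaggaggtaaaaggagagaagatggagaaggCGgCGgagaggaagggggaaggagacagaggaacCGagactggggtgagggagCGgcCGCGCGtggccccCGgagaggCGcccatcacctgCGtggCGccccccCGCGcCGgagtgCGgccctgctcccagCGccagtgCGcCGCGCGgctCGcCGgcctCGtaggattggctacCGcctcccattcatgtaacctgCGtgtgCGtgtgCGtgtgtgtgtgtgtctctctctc
The TENM1 window held 15 CG, that of TENM2 held 3, that of TENM3 held 22 and that of TENM4 held 30, against a median of 14 over 35116 such windows. At least 1 CG occurs in 96% of all windows, and as many CG as in the TENM2 window in 81.8%. The TENM2 window lies 94.2 kb inside the bounds of the gene. Among these 4 windows that of TENM4 had the most CG, and the gene held only 4 wild-type peaks. With 1 window in each of 4 genes, whether CG number and peak number go together cannot be told. No peak of either list overlapped any of the 4 windows. The first sense peak after these starts lay 24.3 kb away in TENM1, 6.18 kb in TENM3 and 18.6 kb in TENM4, over both lists.

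TENM1 lies on chromosome X from 124375903 to 125204312 on the minus strand and spans 828 kb. All 42 wild-type peaks lay on the strand of the gene, where 94.3% of wild-type peaks in coding genes over 500 kb did so. They ran from 24.3 kb after the listed start, at 125179968 to 125180173 (fold 7.57), to 13.9 kb before the end of the gene, at 124389664 to 124389865 (fold 8.64). Peaks occurred along the whole gene, with 2 to 7 in each of 10 equal parts and a median of 17.6 kb between neighbouring summits (0.578 to 64.4 kb). The last peak overlaps the bounds of the noncoding LOC105373331, which is on the opposite strand. RefSeq lists a second TENM1 start 240.5 kb inside the gene, whose window carries 1 CG, and 13 of the 42 peaks lay upstream of it.

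The fold enrichment of IP over local input, as the authors' peak caller gave it, ranged from 1.97 to 15.9 in TENM1, with a median of 7.21 against 7.29 in the whole wild-type list. The strongest peak had a fold of 15.9 on 35 IP reads at 124688057 to 124688465. It lies 39 bp from RPS26P57, a pseudogene of a ribosomal protein, and whether reads of other copies reach it was not tested. The next were 13.9 at 124830972 to 124831269 on 71 reads, 13.4 at 124801329 to 124801654 on 55, 11.9 at 124465629 to 124465910 on 24 and 11.6 at 124754376 to 124754707 on 29. These 5 peaks lie between 373 and 739 kb from the start, in the middle and later parts of the gene. The IP reads at each summit were recovered from the fold and its p-value, and are comparable only within 1 list and strand.

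A TENM1 summit had a median of 37.5 IP reads (13 to 571), against 23 (quartiles 15 and 40) over all wild-type peaks of the same strand. Only 1 of the 42 summits had a local input at the genome-wide floor of the peak caller, where 16% of all wild-type peaks and 21% of those on its strand did. Local input is the number of input reads expected at the summit from the fragment itself or from wider windows around it. A value above the floor means that input reads were present at the summit or in such a window. A value below 1 read comes from a wider window. Input reads on the strand of TENM1 were thus present in wild type at or around 41 of the 42 summits.

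Local input at the called summits of TENM1 differed along the gene. The 23 summits before the midpoint had a median local input of 3.40 reads (0.3 to 165) and 53 IP reads, and the 19 beyond it 0.720 (0.147 to 4) and 26. The median fold was 6.57 before the midpoint and 7.86 beyond it. The 571 reads belonged to a peak at 125148179 to 125148651, 56.0 kb from the start, where the local input was 165 reads and the fold 1.97. The next highest had 138 reads at 125132960 to 125133232 and 113 at 125060140 to 125060373, with folds of 5.33 and 3.86. The peaks with most reads were thus those with most input, not those of highest fold.

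**Figure D2:**
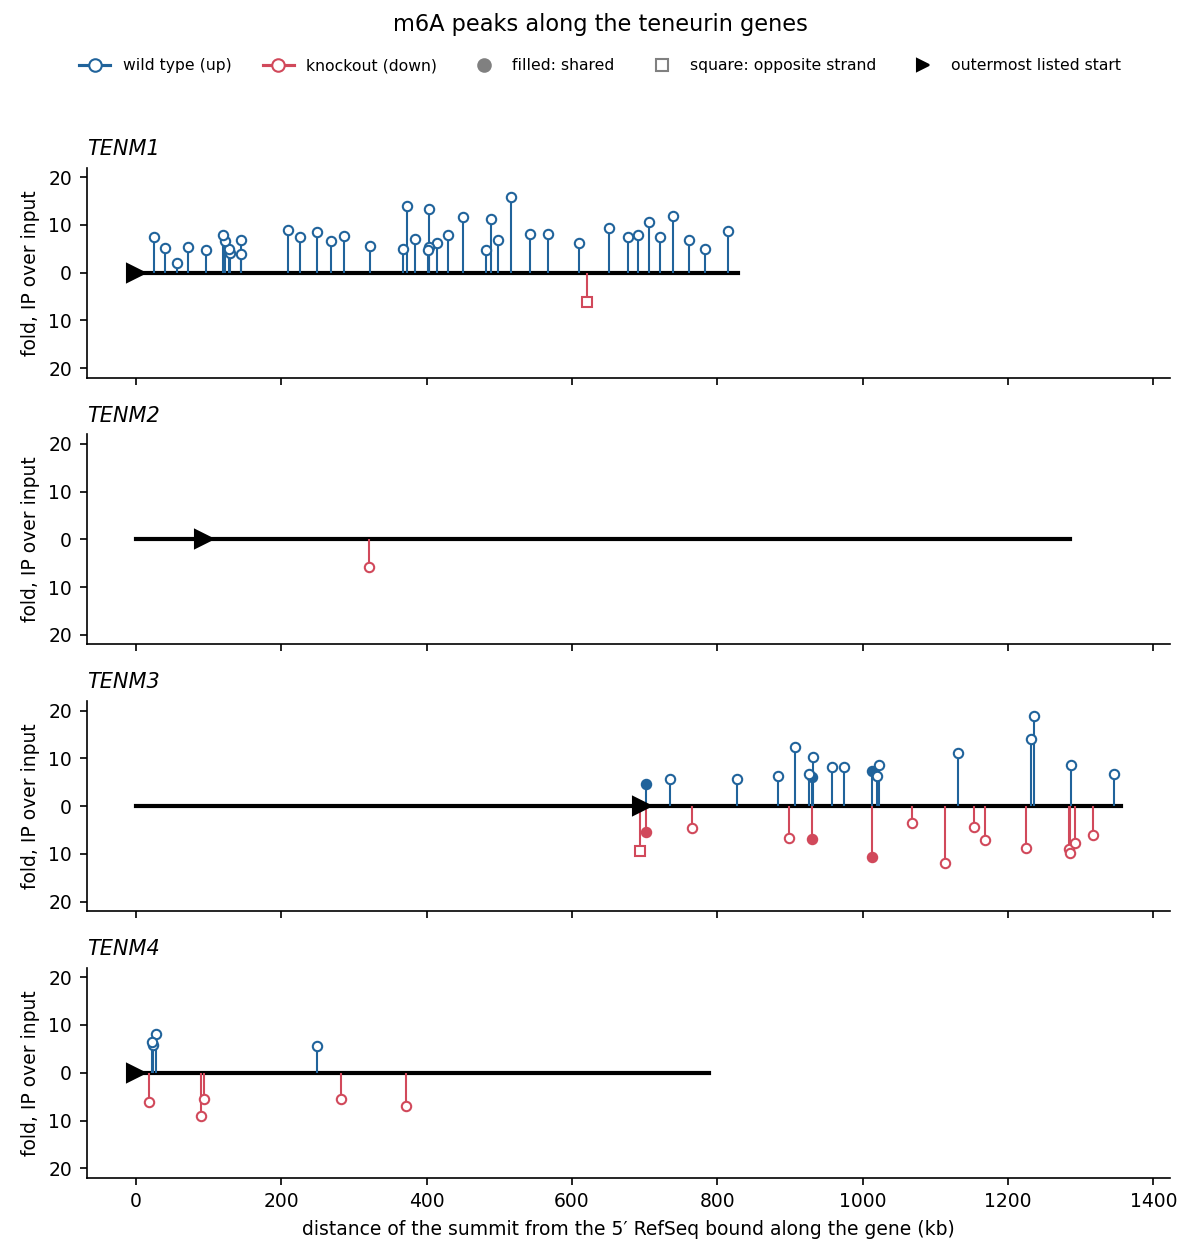
Position of each peak summit (x axis, kb from the 5′ RefSeq bound along the gene) and its fold of IP over input (y axis, wild type upwards, knockout downwards) for the 4 genes, drawn to 1 scale. TENM1 is filled with wild-type peaks over 790.5 kb, TENM3 has peaks of both lists after the start at 696 kb, and TENM4 has peaks in the part near its start.

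The knockout list held 1 peak in the bounds of TENM1, at 124584077 to 124584276, and it lay on the plus strand, opposite to the gene. It rested on 13 IP reads with a fold of 6.23. The knockout list therefore had 0 peaks on the strand of TENM1, and 0 of the 42 wild-type peaks had a partner, meaning a knockout peak that overlaps by 1 bp or more on the same strand. With no knockout peak on that strand of the gene, no TENM1 peak could have a partner, so this share restates the knockout count. Over all wild-type peaks, 20.4% had a partner. No TENM1 peak had a knockout peak of its strand closer than 439 kb.

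Over both strands, partners are commoner at summits with more reads. TENM1 had none in any class of reads, which follows from the lack of knockout peaks on its strand and adds nothing to that count. In the wild-type list 5.53% of peaks with 1 to 15 reads, 12.3% with 16 to 30, 28.2% with 31 to 60, 49.8% with 61 to 100 and 69.2% above 100 had a partner. TENM1 had 4, 12, 17, 6 and 3 peaks in these classes. A peak list gives no value where no peak was called, so the level of TENM1 RNA in the knockout input is not known here. Less TENM1 RNA and less methylation of it cannot be told apart.

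Among coding genes TENM1 ranked 6 of 20056 by number of wild-type peaks. Its density of 5.07 peaks per 100 kb exceeded that of 98.1% of the 315 coding genes over 500 kb, which had a median of 0.432. Of 111 such genes with at least 10 wild-type peaks, 6 (5.41%) had 0 or 1 knockout peak, and the median ratio of knockout to wild-type peaks was 0.759 (quartiles 0.523 and 1). Others among the 6, found after seeing the values, included PTPRD with 17 and 0 peaks, STPG2 with 12 and 1, MARCHF1 with 10 and 0 and SDK1 with 10 and 1. On the strand of the gene, these counts were 17 and 0, 10 and 0, 6 and 0, and 10 and 1. The opposite imbalance also occurred: of 82 such genes with at least 10 knockout peaks, 2 (2.44%) had 0 or 1 wild-type peak, LINGO2 with 0 and 35 and DLGAP1 with 0 and 18. An imbalance over a whole long gene was thus seen in both directions. PTPRD encodes a receptor tyrosine phosphatase and SDK1 a synaptic adhesion protein.

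**Figure D3:**
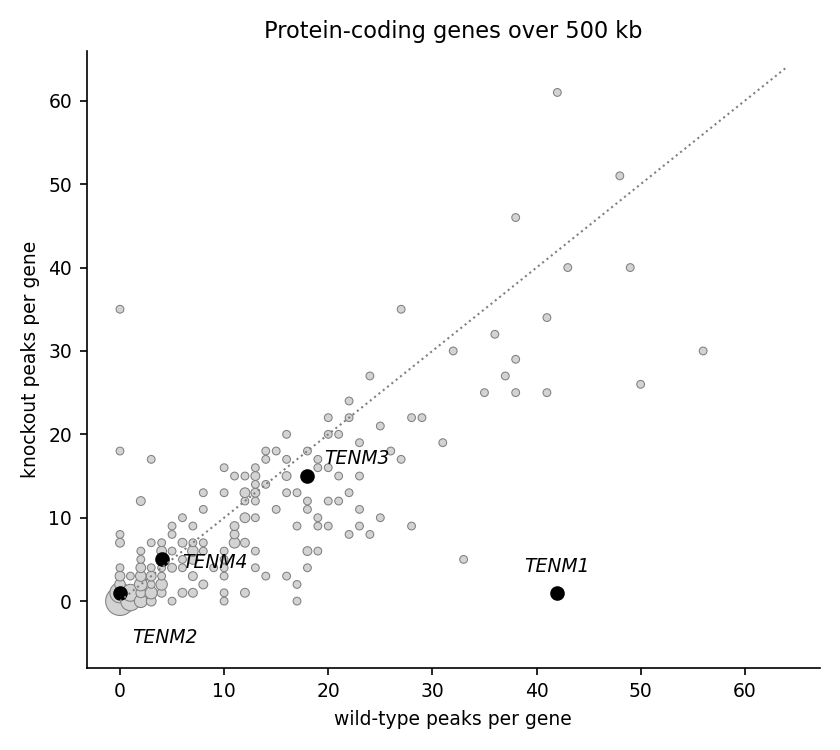
Wild-type (x axis) against knockout (y axis) peak number of the 315 protein-coding genes over 500 kb, where grey circles grow with the number of genes at 1 point and the dotted line marks equal numbers. TENM1 lies at 42 and 1, far under the line, while TENM3 at 18 and 15 and TENM4 at 4 and 5 lie near it.

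By the sum of the differences in log2(peaks + 1) over the 2 lists, a coding gene over 500 kb most like TENM1 was STPG2, at a distance of 1.73. Those most like TENM3 were DACH2 and DNM3, each with 16 and 15 peaks, at 0.160. For TENM4 they were ADGRL2 and PRKCE, each with 4 and 6 peaks, at 0.222, where FBXL17 had the same counts and is less near in length. TENM1 thus had no close neighbour in this measure, whereas TENM3 and TENM4 did.

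The neighbourhood of TENM1 was compared between the lists after its counts were seen. In the 2 Mb beyond the 3′ end of TENM1 there were 17 wild-type and 12 knockout peaks, with 2 of each shared, most of them in THOC2 (8 and 6), XIAP (5 and 1) and STAG2 (3 and 3). THOC2 encodes a subunit of an mRNA export complex, XIAP an inhibitor of apoptosis and STAG2 a cohesin subunit. In the 2 Mb before the start, a stretch poor in genes, there were 3 wild-type peaks and 1 knockout peak. Outside TENM1 chromosome X had 1181 wild-type and 1004 knockout peaks, and 21.5% and 26.3% of all its peaks had a partner. Peaks of both lists were thus present on the side of TENM1 that holds these genes. The wild-type peak nearest to TENM1 from outside lay 29.4 kb upstream on the strand of the gene, with a fold of 5.36 on 9 reads.

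**Figure D4:**
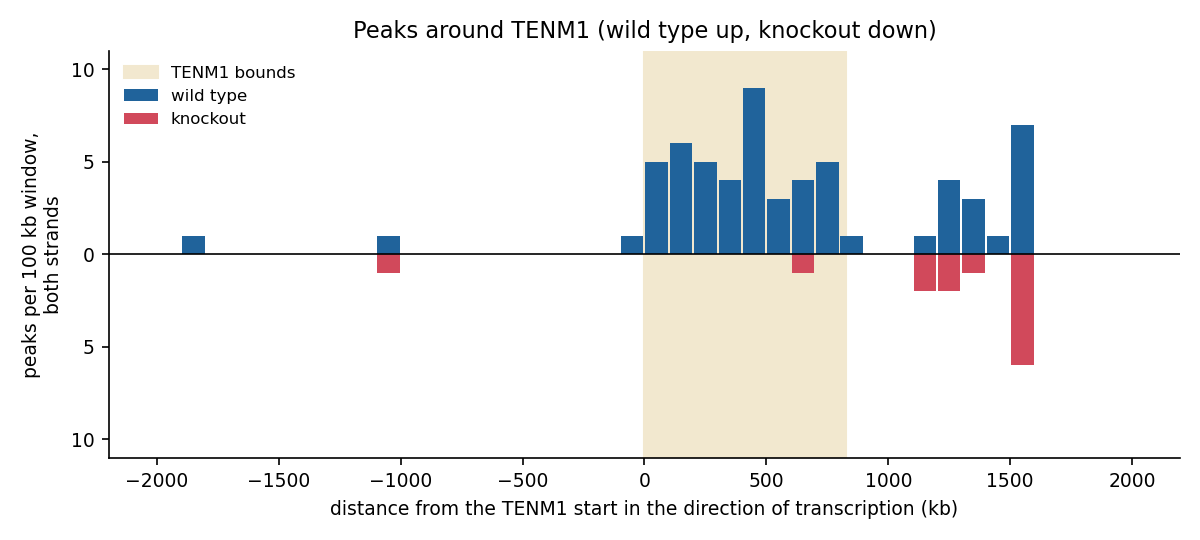
Peaks of both strands per 100 kb window (y axis, wild type upwards, knockout downwards) by distance from the TENM1 start in the direction of transcription (x axis, kb), with the TENM1 bounds shaded. Wild-type windows inside the gene reach 9 peaks and the knockout list has 1 peak there, while the window from 1500 kb holds 7 wild-type and 6 knockout peaks.

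TENM3 lies on chromosome 4 from 181447613 to 182803024 on the plus strand and spans 1355 kb. It had 18 wild-type peaks, all on the strand of the gene, and 15 knockout peaks, of which 14 lay on that strand (93.5% in the knockout list over coding genes of more than 500 kb). No sense peak of either list lay in the first 696 kb of the bounds, before the start at 182143963 whose window is printed above. Counted from that start, the density was 2.73 wild-type and 2.12 knockout sense peaks per 100 kb. The first sense peak lay 6.21 kb after the start in wild type and 6.18 kb in the knockout. A second listed start, 305.1 kb further on with 39 CG in its window, had 10 wild-type and 4 knockout sense peaks upstream of it.

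That first TENM3 peak was found in both lists, at 182150037 to 182150248 in wild type and 182150039 to 182150238 in the knockout. It was the TENM3 peak with most reads in each list, with 89 and 111 IP reads, local inputs of 11 and 9 reads and folds of 4.58 and 5.42. A second shared peak lay at 182378387 to 182378586 in wild type and 182378426 to 182378625 in the knockout, on 15 and 27 reads, with folds of 6.09 and 6.97. The third lay at 182460351 to 182460550 and 182460351 to 182460551, on 42 reads in each list, with folds of 7.36 and 10.6. The summits of the 3 pairs were 30, 2 and 32 bp apart. Folds of the 2 lists are on different scales and were not compared.

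The share of TENM3 peaks with a partner was 3 of 18 in wild type, 16.7% (95% Clopper-Pearson interval 3.58 to 41.4), and 3 of 15 in the knockout, 20% (4.33 to 48.1). These shares lie near those of all peaks, 20.4% and 24.8%. By reads, 0 of 4 knockout TENM3 peaks with 1 to 15 had a partner (5.69% in the list), 1 of 7 with 16 to 30 (13.5%), 1 of 3 with 31 to 60 (27.4%) and 1 of 1 above 100 (70%). No TENM3 knockout peak had 61 to 100 reads (46.4%). The 5 wild-type TENM3 peaks of highest fold had no partner. They were 18.8 at 182683849 to 182684181 on 54 reads, 14.0 at 182678720 to 182678959 on 26, 12.4 at 182354953 to 182355200 on 35, 11.1 at 182579234 to 182579575 on 35 and 10.2 at 182379206 to 182379437 on 26. The nearest knockout peak of the same strand was 11.6, 6.51, 8.07, 18.3 and 0.581 kb away from these. The 15 unshared wild-type peaks as a group were a median of 11.6 kb from the nearest knockout peak, and 2 were within 1 kb.

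In the knockout the highest TENM3 fold was 11.8 on 34 reads, at 182560593 to 182560946. The shared peak at 182460351 followed with 10.6, and then 9.76 at 182733348 to 182733618 on 26 reads and 8.97 at 182730853 to 182731058 on 20 reads. The peak at 182733348 lay 0.341 kb from a wild-type peak at 182733959 to 182734158, too far to count as shared. The list also held a peak of fold 9.33 on 22 reads at 182140860 to 182141380 on the minus strand, within the bounds of the noncoding TENM3-AS1 with its summit at -2.67 kb from the TENM3 start. No wild-type peak lay in TENM3-AS1. The last peaks of the gene were at 182793440 to 182793639 in wild type, fold 6.74, and at 182764259 to 182764717 in the knockout, fold 6.13.

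Over all TENM3 peaks, fold had a median of 7.73 (wild type) and 7.06 (knockout), near the 7.29 and 7.06 of the whole lists. The median sense summit rested on 20.5 and 22 IP reads, where the medians of all plus-strand peaks were 25 and 30. All 18 wild-type summits and 13 of 15 knockout summits had local input above the genome-wide floor, which is the level of 18.9% of all knockout peaks. Input reads were thus present at or around these TENM3 summits in both genotypes. The median local input of all TENM3 summits was 0.68 reads (wild type) and 0.38 (knockout). In TENM1 the knockout list has no sense peak at which input could be read. TENM3 had 1.33 wild-type and 1.11 knockout peaks per 100 kb of its bounds, above 67.9% and 69.5% of coding genes over 500 kb.

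**Figure D5:**
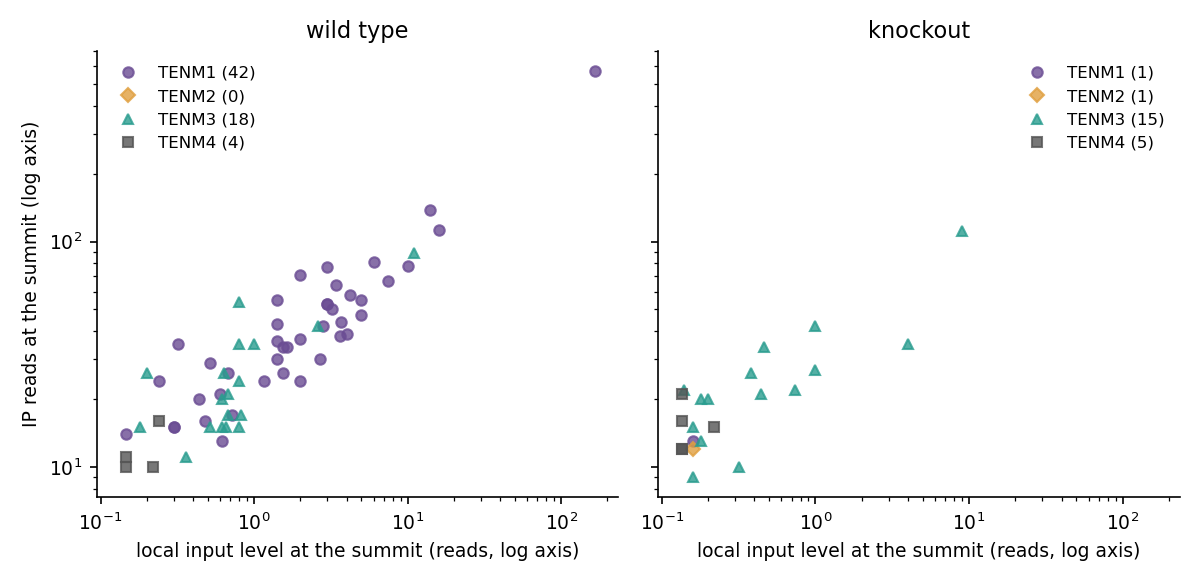
IP reads at each teneurin summit (y axis, log) against the local input level there (x axis, log), by gene, for the wild-type and the knockout list, where points are peaks and the legend gives their number. TENM1 summits of wild type extend to 571 IP reads at an input of 165. TENM3 summits run from 11 to 89 IP reads in wild type and from 9 to 111 in the knockout. TENM4 summits run from 10 to 16 and from 12 to 21, and the TENM2 knockout summit has 12. Reads are comparable only within 1 list and strand.

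TENM4 lies on chromosome 11 from 78652829 to 79441030 on the minus strand and spans 788 kb. It had 4 wild-type and 5 knockout peaks, each in the sense direction and within 371 kb of the start, and none was shared. The 95% Clopper-Pearson upper limits of these shares are 60.2% and 52.2%, so few peaks leave the share of TENM4 almost unknown. The wild-type peaks were at 79418567 to 79418910 (fold 6.36, 11 reads), 79417582 to 79418030 (5.86, 10 reads), 79412780 to 79412979 (8.19, 16 reads) and 79191135 to 79191334 (5.51, 10 reads). The first 3 cluster between 22.3 and 28.2 kb after the start.

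The knockout peaks of TENM4 were spread more widely. The one nearest the start lay at 79422379 to 79422578 with a fold of 6.20 on 15 reads, 18.6 kb after it and 3.47 kb from a wild-type peak. The strongest had a fold of 8.98 on 21 reads at 79351025 to 79351421. The others were at 79347891 to 79348090 (5.51, 12 reads), 79158387 to 79158586 (5.51, 12 reads) and 79069938 to 79070137 (7.06, 16 reads). The local input was at the genome-wide floor at 4 of these 5 summits and at 2 of the 4 in wild type, so TENM4 peaks rest on few reads of either kind. TENM4 exceeded 52.4% of coding genes over 500 kb in wild-type density and 56.8% in knockout density.

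TENM4 hosts the microRNA genes MIR708 and MIR5579. No peak overlapped either, and the nearest was the knockout peak at 79422379, which lies 153 bp upstream of MIR5579. Its mature products, from RefSeq, are shown because they are the microRNAs closest to any teneurin peak, with the seed (bases 2 to 8) in capitals.
hsa-miR-5579-5p: uAUGGUACuccuuaagcuaac
hsa-miR-5579-3p: uUAGCUUAaggaguaccagauc
The peak nearest to MIR708 was a wild-type peak 10671 bp away. RefSeq lists 3 genes inside TENM1, 9 inside TENM2, 10 inside TENM3 and 4 inside TENM4. Of these, LOC105373331 held 1 wild-type peak, and TENM3-AS1, LOC105377572, LOC105377571 and TENM2-AS2 held 1 knockout peak each. The peaks in LOC105377572 and LOC105377571 lie on the strand of TENM3, opposite to these noncoding genes.

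TENM2 lies on chromosome 5 from 166979029 to 168264157 on the plus strand and spans 1285 kb. The wild-type list had no peak in it, as had 78 other coding genes over 500 kb. The 1 knockout peak was at 167299601 to 167299800 on the strand of TENM2, with a fold of 5.82 on 12 reads and local input at the genome-wide floor. It also lies within the bounds of TENM2-AS2, so its gene of origin is uncertain. TENM2 is thus the member for which neither list gave sustained signal.

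Counted over the family, 3 of 64 wild-type peaks (4.69%, 95% Clopper-Pearson interval 0.977 to 13.1) and 3 of 22 knockout peaks (13.6%, 2.91 to 34.9) had a partner. The low wild-type share is that of TENM1, which holds 42 of the 64 peaks and none of the 3 partners. All 64 wild-type and 20 of 22 knockout peaks lay on the strand of their gene.

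Genes for known partners of teneurins and for proteins further along the same pathway, not all of which bind teneurins, were counted in the same way. Of 13 genes on the list, 7 had a wild-type and 10 a knockout peak, where 39.6% and 34.8% of all coding genes, not matched for length, did. A peak on the strand of the gene was known for 6 and 7 of them. Among the latrophilins, ADGRL3 held 15 and 18 peaks with 3 of each shared, ADGRL2 held 4 and 6 with none shared, and ADGRL1 held 2 and 1. The FLRT genes, which encode further latrophilin ligands, had few, with 0 and 1 in FLRT1, 0 and 1 in FLRT2 and 1 and 1 in FLRT3. The FLRT1 peak lay opposite to its gene. Of the netrin receptor genes whose products bind FLRT proteins, UNC5C held 12 and 11 peaks with 3 of each shared, UNC5D 0 and 1, and UNC5A and UNC5B none. DAG1, which encodes dystroglycan, held 3 and 2, the cytoskeletal adducin gene ADD1 held 1 and 1, and the latrophilin relative ADGRL4 had none. ADGRL3 and UNC5C had like numbers in both lists, as TENM3 did. This was common: over coding genes above 500 kb with at least 10 wild-type peaks, the median knockout to wild-type ratio was 0.759. UNC5C spans 386 kb and is not in that set.

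Peaks over cell type markers give a weak check of the label, because a peak needs RNA that is also enriched in the IP. Of 7 kidney and HEK293T markers 6 had a wild-type peak and 3 a knockout peak, among them LIN28B (3 and 1) and EYA1 (4 and 1), and SIX2 had none. These shares can be read against 39.6% and 34.8% of all coding genes. The peaks in PAX2 and PAX8 lay opposite to their genes, LIN28B had sense peaks in both lists, and the strand of the others was not used here. Of 8 neuronal markers 4 had a wild-type peak and 2 a knockout peak, near the share of all coding genes, and SYT1, a synaptic vesicle gene, had 22 and 22. TUBB3, DCX, SNAP25 and NEFM were among those with none. Glial, blood and muscle markers with a peak were MBP (2 and 1), PTPRC (1 and 0) and TTN (8 and 0), the last 2 with every peak opposite to the gene. The part of cell identity in the TENM1 counts was not tested.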

How the data were processed

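Per the labels, m6A-IP and input libraries were stranded and made from chromosome-associated RNA. Alignment and calling tools are listed as MACS2 2.2.7.1, HISAT2 2.2.1 and SAMtools 1.15.1 on hg38, per the submitters' processing notes, and their settings are not given in the sources used here. Each deposited list holds a fold (ratio of IP over local input), a −log10 p-value, a −log10 q-value and a display score, which was not used. The lowest −log10 q of the wild-type list was 2.01.

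Overlaps used pandas 2.3.3, SciPy 1.17.1 and numpy 2.4.6 under Python 3.11.15, and plots used matplotlib 3.10.9. Gene bounds came from RefSeq GRCh38.p14 and strands from its promoter windows, which held all 4 members. As the values bear out, the fold is (IP + 1) / (input + 1) and the p-value a Poisson tail, which gave 1 solution in whole IP reads for 64 wild-type and 21 of 22 knockout members. An IP read weighed 0.607 (plus strand) and 0.572 (minus) for wild type, against 0.479 and 0.438 for the knockout. On simulated data the partner step was run on planted overlaps, and the read step with the weight of a read given. Finding that weight was not tested in this way. The planned peak and protein sequences were not analysed here, as no genome or protein table was used.

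Members and lists were chosen with earlier results of these data known. The text names all members, and the 5 peaks of highest fold, first and last peaks and shared peaks of each gene. It also names the partner and pathway genes and inner genes that hold a peak. For members with at least 5 peaks in either list it names the 2 most like coding genes over 500 kb. Positions from listed starts, read classes, gene parts, the TENM1 neighbourhood and the imbalance counts were added after seeing the data. An item that this rule would name is not reported here. No statistical test was run, because each list is 1 call. Intervals cover counting error only and treat the peaks of a gene as independent, which they need not be.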

Additional observations from a re-analysis of the deposited data

How the results depend on the processing

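No paired analysis was possible because the lists carry no values per replicate, and no replicate could be left out for the same reason. The 42 wild-type peaks of TENM1 became 21 when each list was reduced to its upper 50% by fold, and its 1 knockout peak became 0 in that setting or on the strand of the gene only. TENM3 went to 10 wild-type and 8 knockout peaks in that setting. Because it keeps 50% of each list, drops near this size in TENM1 and TENM3 follow from the setting itself. The 1 knockout peak of TENM2 became 0 with a −log10 q of at least 5 (also as a density of 0 and 0 sense peaks), in the fold setting, and when peaks in other genes were left out (0 sense peaks). TENM4 had 2 wild-type and 3 knockout peaks, all sense, with a −log10 q of at least 5 (0.254 and 0.381 per 100 kb), 1 and 1 in the fold setting, and 2 wild-type peaks with equal numbers of peaks of highest −log10 q. Counted from the first to the last peak of either list, density was 2.76 and 2.30 peaks per 100 kb in TENM3 and 1.13 and 1.42 in TENM4 (wild type and knockout). The other 127 values, among them every share with a partner, moved by less than 1.5 times or stayed within their intervals. The TENM4 and TENM2 summits held 10 to 21 IP reads, and the part of depth in their counts was not tested.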
